A study of Mus musculus with 44 samples.

Results

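The constant genotype effect of a Kdm5b mutation was measured in the hippocampus across 36 RNA sequencing libraries, 18 from Kdm5bDARID/DARID mice and 18 from wild-type (WT) mice, out of 44 libraries in the series. The 36 were chosen as all libraries of the second cohort, and the other 8, from whole hippocampus of the first cohort, were not analysed here. Each library came from the dorsal hippocampus of 1 mouse, aged 7 to 8 weeks, on a C57BL/6J x 129S2/Sv F2 background. Baseline mice were naive (0 h), and the others were killed 1 h or 3 h after contextual fear conditioning, in which 3 footshocks of 0.7 mA and 2 s were given. Each genotype held 6 libraries per time point, from 3 males and 3 females by label. The mutant allele lacks exons 2 to 4 of Kdm5b, which encode the ARID domain and part of the JmjN domain, in every cell of the body, and a shorter KDM5B protein is still made. Homozygous C57BL/6J males were crossed to 129S2/Sv females and the F1 mice were intercrossed. A mutant F2 mouse therefore carries, on both copies of chromosome 1 near Kdm5b, sequence from the mutant C57BL/6J stock where a WT mouse carries 129S2/Sv sequence, and for genes in that neighbourhood the deletion and the sequence inherited with it cannot be told apart.

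KDM5B removes methyl groups from lysine 4 of histone H3, above all the trimethylated form (H3K4me3) that marks the starts of active genes, many of them in CpG-rich promoters. Loss of such a demethylase is known to leave more H3K4me3 at promoters, and KDM5 enzymes are known for keeping germline and developmental genes off in other cells. In the hippocampus, fear conditioning itself moves many transcripts for hours. The comparison therefore asked which genes differed between the genotypes over naive and trained mice together, in 1 model with time point and labelled sex as additive terms. This model takes the difference as the same at each time point and does not select genes for that. Change over time was tested separately, as an interaction.

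Library totals ran from 40274435 to 107000233 counts, with medians of 68506278 in WT and 64421711 in mutants. Levels below are CPM, that is, counts scaled to library size with TMM factors. In 2 libraries the sex transcripts contradicted the label. That labelled WT male replicate 1 at 1 h held 51186 Xist counts and 0 counts on the Y-linked genes. The library labelled mutant female replicate 2 at 3 h held 36 Xist counts and 10239 on the Y-linked genes. To see how each library sat relative to its genotype label, the model was fitted without it, and the genes then called were asked whether the left-out library lay nearer to the WT or to the mutant mean of its time point. In 32 libraries most genes, 54.95% to 85.8%, lay nearer to the labelled genotype. In 4 libraries most lay nearer to the other genotype. These were WT male 1 at 0 h (29.63% of 297 genes nearer to WT), mutant male 1 at 0 h (29.16% of 367 genes nearer to mutant), WT male 1 at 1 h (23.37% of 368) and mutant female 2 at 3 h (34.56% of 327), and they include both libraries whose sex transcripts went against the label.

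The level of Fos, an immediate early gene that rises within an hour of training, was also compared with that of the other libraries of each group. In the library labelled WT male 1 at 1 h Fos was at 11.7 CPM, against 19.2 to 34.4 CPM in the other WT libraries of that time. In the library labelled mutant female 2 at 3 h it was at 43.9 CPM, against 6.42 to 11.6 CPM in the other mutant libraries of that time. At 0 h Fos was at 21.5 CPM in WT male 1, against 5.20 to 12.2 CPM in the other WT libraries, and at 19.8 CPM in mutant male 1, against 6.25 to 18.95 CPM in the other mutants. For Fos each of the 4 libraries thus lay outside the range of its labelled group, mutant male 1 at 0 h by little. Other early genes did not all do so: Egr2 lay inside the range in 1 of the 4 (mutant male 1 at 0 h) and Npas4 in 3 of the 4 (all but mutant female 2 at 3 h). Whether any of these libraries carries another mouse's label was not tested, and a wrong genotype label would change what the fold changes and calls from all 36 libraries measure. The labels were kept as they stand for all 36. Counts and the leading genes are also given without the 2 libraries of discordant sex and without all 4. Of the 42 called genes named by rule, 40 were still called without the 2 (not Efnb3 and Cacng4) and 41 without the 4 (not Cacng4), all with the same sign. The set of 4 was chosen on the genotype difference itself, so values without it show how much the estimates move and are not an independent test.

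**Figure D1:**
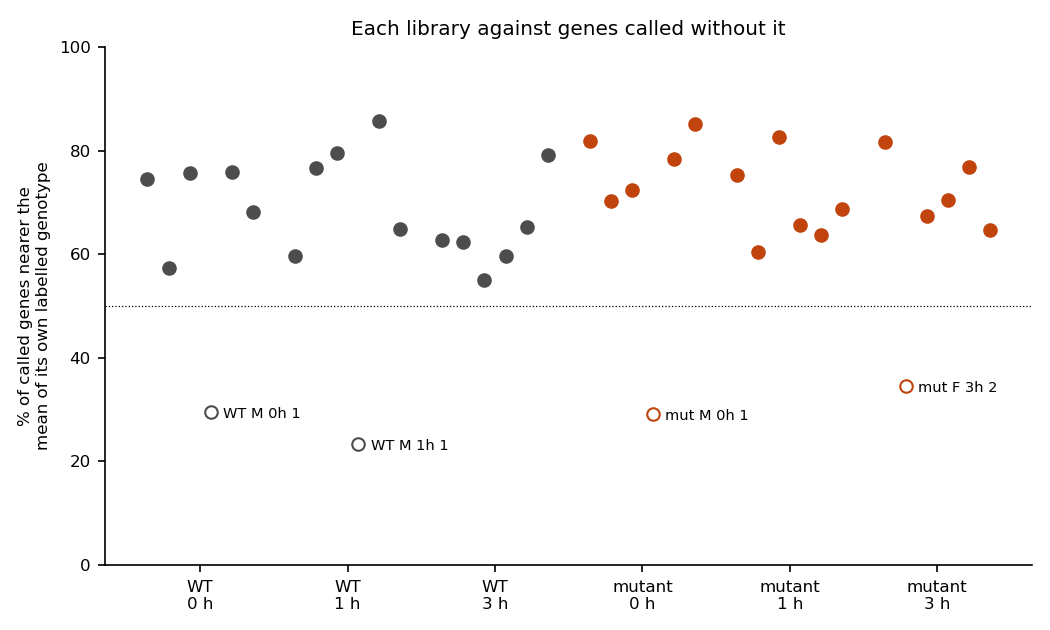
Percentage of called genes (vertical axis) for which each library, left out of the fit, lay nearer to the mean of its labelled genotype than to the other, by genotype and time point (horizontal axis), 1 point per library. Open points are the 4 libraries below 50%, from 23.37% to 34.56%, and filled points the other 32, from 54.95% to 85.8%.

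Kdm5b itself (gene 75605, chr1:134560178-134632878, GRCm38, overlapping Mgat4e) ran from 79.6 to 97.1 CPM among WT libraries, median 88.8, and from 75.6 to 93.6 CPM among mutant ones, median 83.5. The lowest WT value and the highest mutant value came from the 2 libraries of discordant sex, and the groups overlapped. The mutant minus WT difference in log2 CPM came to −0.08 (SE 0.02, adjusted p = 0.0581 by edgeR), with 17 of 18 mutant libraries below the WT median. Here and below, such counts set each mutant library against the WT median of its own time point, not the median over all WT libraries. Without the 2 libraries it was −0.11 (adjusted p = 0.00113 by edgeR), and without the 4 it was −0.11 (adjusted p = 0.000805 by edgeR), so that the call depended on these libraries. The count covers the whole gene, and a transcript that lacks exons 2 to 4 still adds to it, so it does not check the deletion.

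Of 18186 genes tested, 237 were called (1.30%), with 163 higher (0.896%) and 74 lower (0.407%) in mutants, by the quasi-likelihood F-test of edgeR at a Benjamini-Hochberg adjusted p under 0.05. An unadjusted p under 0.05 was found for 2764 genes. Without the 2 libraries of discordant sex 507 genes were called (2.77%), 282 higher (1.54%) and 225 lower (1.23%), and without the 4 libraries 747 (4.10%), 426 higher (2.34%) and 321 lower (1.76%). Of the 237 genes, 229 were also called without the 2 and 229 without the 4. The split between directions also moved with the test: DESeq2 with the same covariates called 292 higher and 267 lower, including all 237. The median log2 fold change over all genes tested was 0.00.

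The called differences were mostly small. Their median absolute log2 fold change was 0.32, against 0.05 over all genes tested. Of the 237, 93 were under 0.25 and 27 were over 1. Genes that were higher in mutants had a median log2 fold change of 0.39 and those that were lower one of −0.18. Size and precision both varied with level. The median half-width of the 95% confidence interval was 0.48 for the 3609 genes under 1 CPM and 0.06 for the 2277 genes at 100 CPM or more, and the called genes in these classes had median absolute changes of 0.96 and 0.12. No tested gene had all 18 mutant libraries beyond all 18 WT libraries, and 6 genes had all 16 beyond all 16 once the 4 libraries were left out. The called genes include 62 that overlap another gene in the annotation. The strand setting of the counting is not given in the sources used here, so reads of the overlapping partners may be shared or lost.

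**Figure D2:**
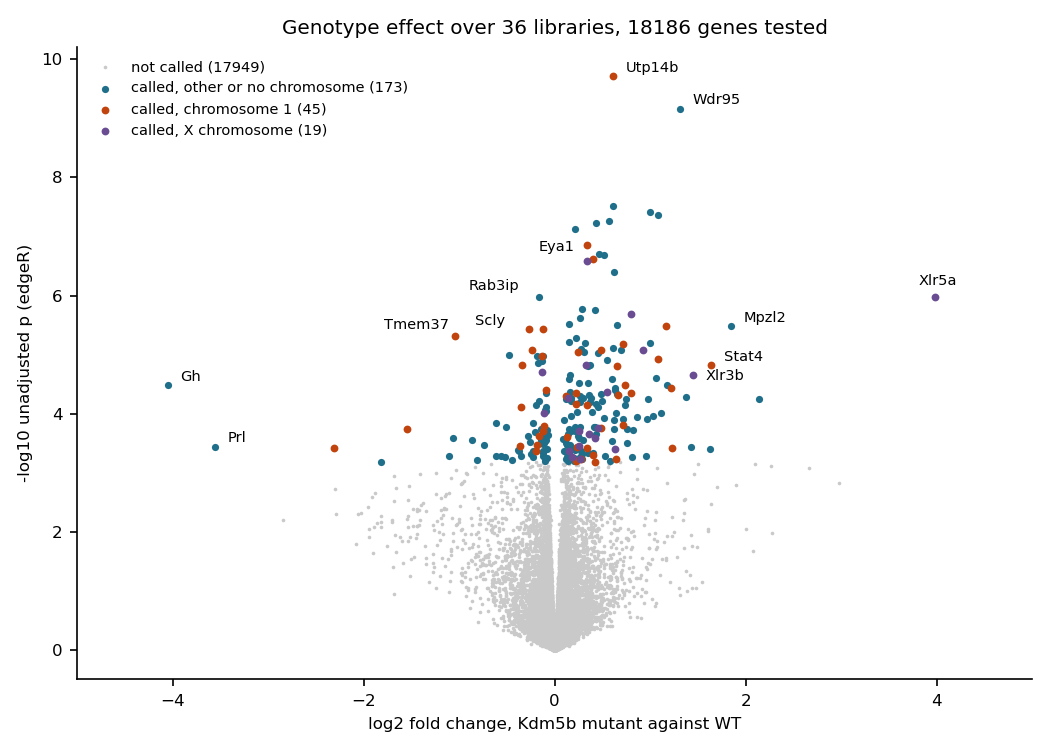
Log2 fold change of mutant against WT (horizontal axis) and −log10 of the unadjusted edgeR p (vertical axis) for the 18186 genes tested, 1 point per gene, with the 237 called genes coloured by chromosome. More called genes lie to the right (163) than to the left (74), and 45 are on chromosome 1.

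Utp14b, an intronless copy of Utp14a nested in Acsl3 and known for its need in spermatogenesis, had the smallest p. It lies on chromosome 1, 55.9 Mb below Kdm5b (gene 195434, chr1:78657825-78667601). It ran from 5.27 to 9.85 CPM among WT libraries, median 6.51, and from 6.97 to 15.9 CPM among mutant ones, median 10.5, and the lowest mutant value was that of the library labelled mutant male 1 at 0 h. All 18 mutant libraries lay above the WT median, with a log2 fold change of 0.61 (SE 0.07, adjusted p = 3.49e-06 by edgeR), 0.62 without the 2 libraries and 0.70 without the 4. Acsl3, the host gene, had a log2 fold change of 0.05 (SE 0.03, adjusted p = 0.507 by edgeR).

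Wdr95, a WD repeat gene on chromosome 5 that overlaps Gm15997, ran from 0.321 to 1.82 CPM among WT libraries, median 0.774, and from 0.731 to 2.92 CPM among mutant ones, median 2.20. Its log2 fold change was 1.31 (SE 0.16, adjusted p = 6.27e-06 by edgeR) 1.43 without the 2 libraries and 1.53 without the 4, where the highest WT value (1.03 CPM) was below the lowest mutant value (1.58 CPM). Stpg1, which encodes a sperm tail protein and overlaps Nipal3 on chromosome 4, ran from 2.56 to 7.64 CPM among WT libraries and from 4.58 to 16.5 CPM among mutant ones, with medians of 4.34 and 9.29. The mutants were higher by a log2 difference of 1.00 (SE 0.14, adjusted p = 0.000154 by edgeR), and by 1.10 without the 2 libraries and 1.17 without the 4, where its groups, too, did not overlap (up to 6.48 CPM in WT, from 6.62 CPM in mutants).

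Eya1, a coactivator and phosphatase of ear, kidney and muscle development on chromosome 1, far below Kdm5b, ran from 17.0 to 31.2 CPM among WT libraries, median 21.0, and from 20.3 to 32.1 CPM among mutant ones, median 30.1. Its highest WT value was that of the library labelled WT male 1 at 1 h and its lowest mutant value that of mutant male 1 at 0 h. The log2 fold change was 0.40 (SE 0.06, adjusted p = 0.000366 by edgeR), 0.46 without the 2 libraries and 0.52 without the 4, where WT reached 23.7 CPM and mutants began at 27.3 CPM. Dach1, a cofactor that works with Eya proteins, had medians of 6.91 CPM in WT and 11.1 CPM in mutants (log2 fold change 0.56, SE 0.08, adjusted p = 0.000154 by edgeR). Id4, an inhibitor of bHLH transcription factors, had medians of 45.9 and 62.9 CPM, WT first, and 18 of 18 mutant libraries above the WT median (0.44, SE 0.06, adjusted p = 0.000154 by edgeR). Without the 4 libraries Dach1 was at 0.64 and Id4 at 0.41, and without the 2 at 0.58 and 0.43. Id4 overlaps A330033J07Rik.

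Stat6, the transcription factor of interleukin 4 and 13 signalling, overlaps Nab2 on chromosome 10. It ran from 7.72 to 16.2 CPM among WT libraries, median 9.87, and from 10.6 to 17.2 CPM among mutant ones, median 15.5, with the highest WT and lowest mutant values in the 2 libraries of discordant sex. Its log2 fold change was 0.52 (SE 0.08, adjusted p = 0.000343 by edgeR), 0.57 without these libraries and 0.65 without the 4. Hsd11b1, the enzyme that regenerates active glucocorticoid inside cells, rose from a WT median of 28.0 to a mutant median of 35.8 CPM (0.34, SE 0.05, adjusted p = 0.00028 by edgeR). It lies on chromosome 1, 58.6 Mb above Kdm5b, and was at 0.35 without the 2 libraries and 0.39 without the 4. The other leading higher genes were Cnn2, an actin-binding calponin (0.61), Arsi, an arylsulfatase (1.08), Cyp2s1, a cytochrome P450 (0.46), and Tprkb, a subunit of the KEOPS complex that modifies transfer RNA (0.22), with edgeR adjusted p from 0.000154 to 0.000343 and 17 or 18 of 18 mutant libraries above the WT median. Tprkb overlaps Nat8f1.

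**Figure D3:**
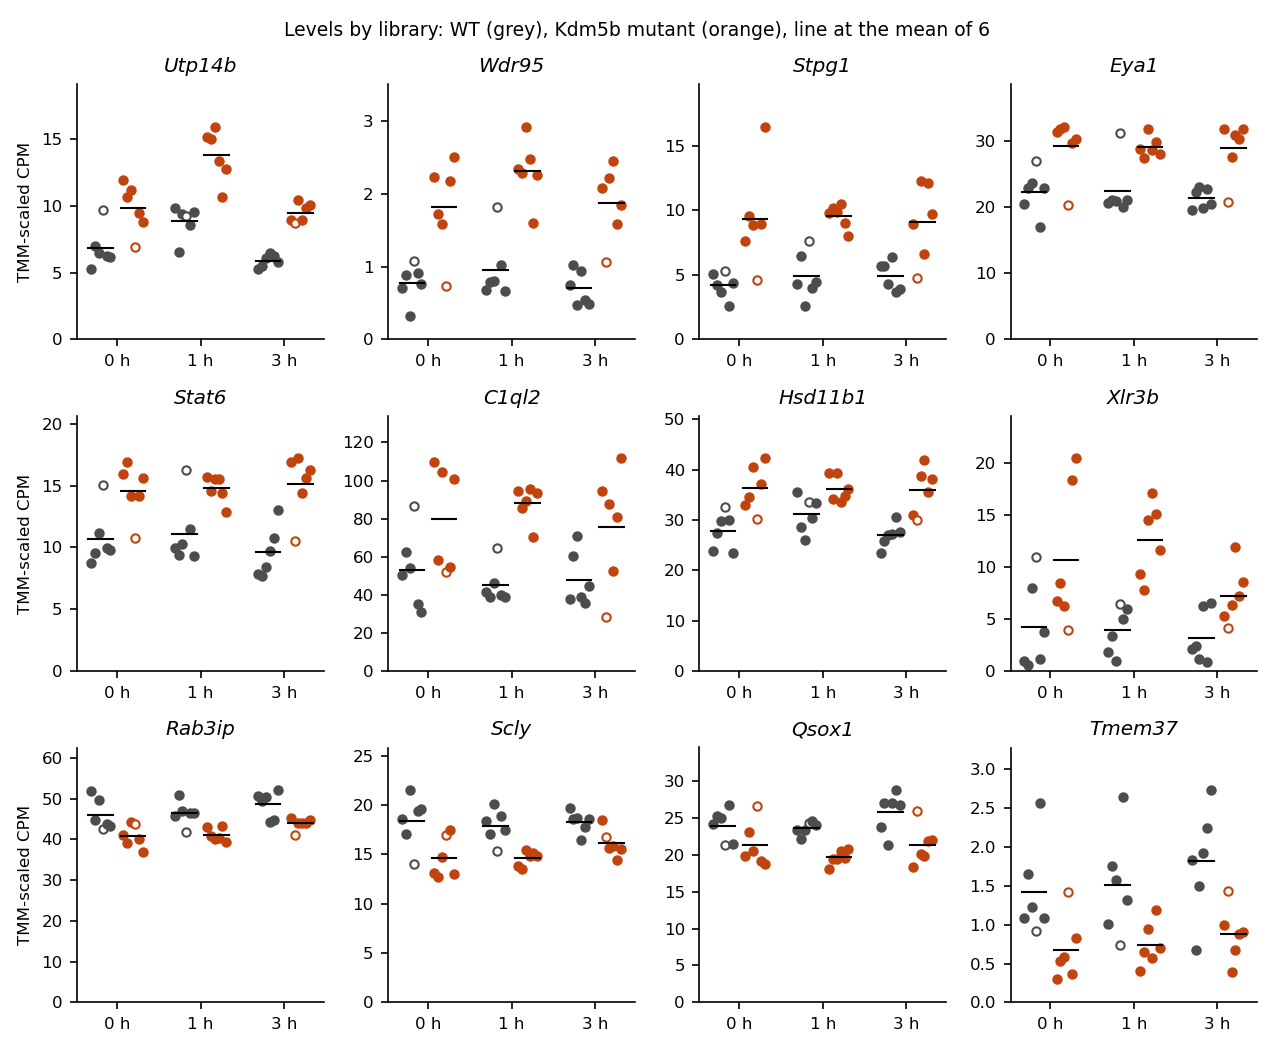
TMM-scaled CPM (vertical axes, from 0) of 12 named genes in each library, by time point (horizontal axes) for WT (grey) and mutants (orange), with a line at the mean of 6 libraries and open points for the 4 libraries nearer to the other genotype. Utp14b to Xlr3b were higher and Rab3ip to Tmem37 lower in mutants, and the open points often lie with the other genotype.

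The leading lower genes mostly had small changes at moderate to high levels. Rab3ip, an exchange factor that activates the vesicle GTPase Rab8, had the smallest p of these. It ran from 41.7 to 52.1 CPM among WT libraries, median 46.4, and from 37.0 to 45.3 CPM among mutant ones, median 42.1. All mutant values lay below the overall WT median, and 17 of 18 lay below the WT median of their own time point. The log2 fold change was −0.16 (SE 0.03, adjusted p = 0.00122 by edgeR). Fam20b, a xylose kinase of proteoglycan synthesis (−0.12, SE 0.02), and Scly, selenocysteine lyase (−0.27, SE 0.05), both on chromosome 1, each had an edgeR adjusted p of 0.0026 and 18 of 18 mutant libraries below the WT median. Tmem37, a small relative of calcium channel gamma subunits on chromosome 1, fell from a median of 1.54 to 0.685 CPM (−1.04, SE 0.19, adjusted p = 0.0032 by edgeR). Qsox1, a secreted sulfhydryl oxidase (−0.23), Insig2, which holds back sterol synthesis in the endoplasmic reticulum (−0.13), and Tgfb2, a growth factor of the TGF beta family (−0.34), lie on chromosome 1 as well, with edgeR adjusted p from 0.00401 to 0.00517.

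Lower genes on other chromosomes were Rps4l, a copy of the ribosomal protein gene Rps4x (−0.48), Tmem135 (−0.13), Jpt1 (−0.18), Miga1, which acts in mitochondrial fusion (−0.13), and Nucb1, a calcium-binding protein of the Golgi (−0.18), with edgeR adjusted p from 0.00428 to 0.00512. Reads of Rps4l can be split with its near-identical parent, and Rps4l, Tmem135 and Nucb1 overlap Tmtc1, Fzd4 and Tulp2. Without the 4 libraries each of the 12 lower genes named here kept its sign, with log2 fold changes from −1.31 (Tmem37) to −0.12 (Tmem135), and each was still called.

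Because H3K4me3 lies mainly on CpG-rich promoters, the CG pairs (the letters CG, the same on both strands) were counted in the 300 bases from 250 before to 50 after the start of each gene, from RefSeq sequences of GRCm38.p6. The first start listed for each gene was used, which need not be the outermost. These matched 13468 of the 18186 genes tested, 119 of the 163 higher and 58 of the 74 lower genes. The median number of CG pairs was 19 over all matched genes, 11 in the higher genes (quartiles 6 and 19) and 22 in the lower genes (quartiles 10 and 28.8), and 99.18% of all matched promoters held at least 1. The window covered the outermost 5′ end of the gene for 10685 of the 13468, and the medians over such genes were again 19, 11 and 22. Off chromosome 1 the medians were 10 for 96 higher and 22 for 44 lower genes. The median level of the matched genes was 8.57 CPM for the higher, 36.9 CPM for the lower and 17.3 CPM for all, so the sets also differ in expression level, and the part of level in this contrast was not tested. To show the contrast, promoters of 2 higher genes with few CG pairs, Stpg1 (9, chr4:135495737-135496036, plus strand, at a start inside the annotated gene) and Stat6 (8, chr10:127642736-127643035, plus strand), are shown beside those of 2 lower genes with many, Rab3ip (28, chr10:116950404-116950703, minus strand) and Fam20b (43, chr1:156718861-156719160, minus strand), 5′ to 3′, with each CG in capitals. Single genes went the other way: Utp14b and Id4, both higher, hold 40 (at a start inside the gene) and 39 CG pairs, and Insig2, lower, holds 0.
Stpg1: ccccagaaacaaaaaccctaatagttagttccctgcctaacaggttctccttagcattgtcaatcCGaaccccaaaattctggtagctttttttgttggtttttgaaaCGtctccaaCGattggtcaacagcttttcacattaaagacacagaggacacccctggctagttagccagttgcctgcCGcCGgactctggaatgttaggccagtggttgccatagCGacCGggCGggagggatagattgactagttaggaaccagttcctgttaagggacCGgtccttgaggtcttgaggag
Stat6: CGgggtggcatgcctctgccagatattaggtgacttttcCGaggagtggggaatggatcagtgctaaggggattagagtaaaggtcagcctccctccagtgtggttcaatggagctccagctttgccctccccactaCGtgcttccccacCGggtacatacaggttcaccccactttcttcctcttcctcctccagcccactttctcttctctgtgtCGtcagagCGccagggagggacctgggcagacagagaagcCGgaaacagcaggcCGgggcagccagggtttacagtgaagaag
Rab3ip: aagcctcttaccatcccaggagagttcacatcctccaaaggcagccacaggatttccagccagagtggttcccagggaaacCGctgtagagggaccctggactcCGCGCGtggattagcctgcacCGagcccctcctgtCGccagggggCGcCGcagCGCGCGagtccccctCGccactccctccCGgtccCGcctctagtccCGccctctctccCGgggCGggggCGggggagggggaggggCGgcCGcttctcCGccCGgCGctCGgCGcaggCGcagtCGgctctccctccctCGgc
Fam20b: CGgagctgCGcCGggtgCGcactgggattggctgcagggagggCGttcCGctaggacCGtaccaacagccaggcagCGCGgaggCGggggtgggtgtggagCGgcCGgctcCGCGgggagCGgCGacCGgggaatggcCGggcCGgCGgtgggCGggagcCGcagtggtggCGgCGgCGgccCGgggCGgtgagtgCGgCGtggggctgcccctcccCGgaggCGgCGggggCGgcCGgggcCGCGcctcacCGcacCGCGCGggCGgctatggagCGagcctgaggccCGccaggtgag

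Chromosome 1, which carries Kdm5b, held 45 called genes, 29 higher and 16 lower, among 1044 tested (4.31%), against 1.09% of 15828 genes on the other autosomes. By distance from Kdm5b the share was 1.89% of 106 genes within 5 Mb, 0 of 31 genes from 5 to 10 Mb, 11.5% of 96 genes from 10 to 25 Mb, 4.90% of 347 genes from 25 to 50 Mb and 3.23% of those beyond 50 Mb. The median absolute log2 fold change was 0.06 to 0.08 in each of these bins and 0.05 on the other autosomes. The share was thus not highest next to Kdm5b, and called genes ran along most of the chromosome. No test was made of these shares, since genes inherited together in the F2 mice are not independent. Chromosome 1 and the other autosomes had shares of 8.43% and 2.45% without the 2 libraries, and of 9.96% and 3.80% without the 4. Within 5 Mb of Kdm5b 6 genes were called without the 2 libraries and 9 without the 4, and the bin from 10 to 25 Mb had the highest share in both (17.7% and 19.8%).

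The densest window of 10 Mb lay 10 to 20 Mb below Kdm5b, where 6 of 24 tested genes were called (25%). It holds C1ql2, Sctr and Tfcp2l1, higher in mutants, and Tmem37, Insig2 and Inhbb, lower. C1ql2, a secreted protein that organizes synapses of dentate granule cell axons, ran from 31.1 to 86.7 CPM among WT libraries, median 43.1, and from 28.3 to 112 CPM among mutant ones, median 88.6. Its highest WT value was that of WT male 1 at 0 h and its lowest mutant value that of mutant female 2 at 3 h. The log2 fold change was 0.74 (SE 0.15, adjusted p = 0.00898 by edgeR), 0.84 without the 2 libraries and 0.97 without the 4. Sctr, the secretin receptor, was higher by 0.66 (SE 0.13, adjusted p = 0.00517 by edgeR), and Inhbb, a subunit of inhibins and activins, lower by −0.37 (SE 0.09, adjusted p = 0.0366 by edgeR). Within 5 Mb only Slc26a9, an anion transporter (1.08, SE 0.21, adjusted p = 0.00462 by edgeR), and Crb1, a polarity protein (0.65, SE 0.17, adjusted p = 0.0468 by edgeR), were called.

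**Figure D4:**
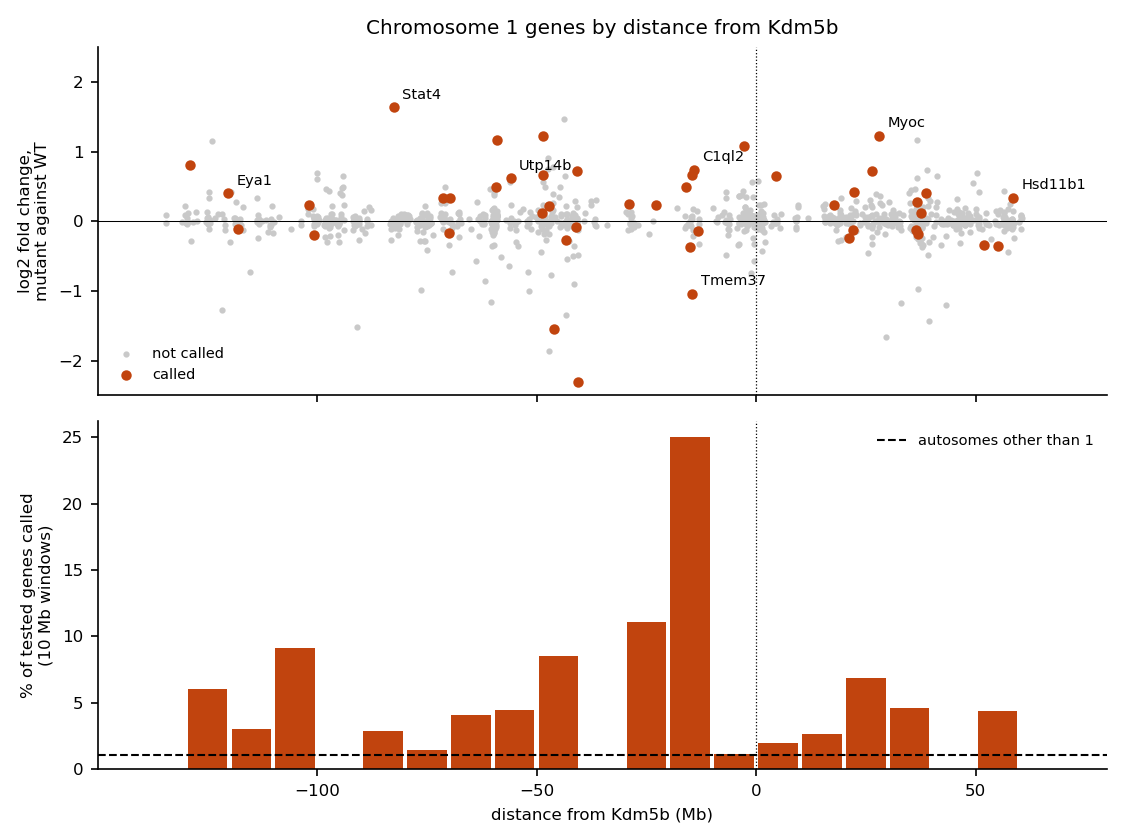
Top, log2 fold change of mutant against WT (vertical axis) for the 1044 tested genes of chromosome 1 by distance from Kdm5b in Mb (horizontal axis), with called genes in orange. Bottom, percentage of tested genes called in windows of 10 Mb, with the dashed line at the 1.09% of the other autosomes. The window 10 to 20 Mb below Kdm5b reaches 25%.

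The X chromosome held 19 called genes among 631 tested (3.01%, against 1.30% of all genes), 17 of them higher in mutants. It held 29 (4.60%, against 2.77%) without the 2 libraries and 37 (5.86%, against 4.10%) without the 4. Bex1, an adaptor expressed in neurons, ran from 24.1 to 35.8 CPM among WT libraries and from 31.3 to 48.3 CPM among mutant ones, with medians of 27.8 and 35.8, and all 18 mutant libraries above the WT median (log2 fold change 0.34, SE 0.05, adjusted p = 0.000366 by edgeR). Xlr3b, an imprinted gene of the X-linked lymphocyte-regulated family with near-identical copies, so that its reads may be split, ran from 0.609 to 10.99 CPM among WT libraries, median 2.88, and from 3.92 to 20.5 CPM among mutant ones, median 8.49. Its log2 fold change was 1.45 (SE 0.29, adjusted p = 0.00702 by edgeR). Bex1 was picked for the text after its values were seen.

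The shares of the gene lists that were called can be set beside those of all genes tested, which were 1.30% with all 36 libraries, 2.77% without the 2 and 4.10% without the 4. Counts of list members at an unadjusted p under 0.05 can be set beside the 2764 of all 18186 genes tested. Of 30 genes that write or erase H3K4 methylation, 1 was called (3.33%, against 1.30%), Setd7, a methyltransferase first known for H3K4, at 266 to 317 CPM among WT libraries and 241 to 294 CPM among mutant ones (−0.10, SE 0.02, adjusted p = 0.0312 by edgeR, overlapping 5031434O11Rik). Kdm5b joined it without the 2 libraries (6.67%, against 2.77%) and without the 4 (6.67%, against 4.10%). The median log2 fold change of the list was 0.01, against 0.00 over all genes. The close relatives Kdm5a (0.02, SE 0.03) and Kdm5c (−0.06, SE 0.03) had edgeR adjusted p of 0.733 and 0.26. Of 28 germline genes tested, 0 were called by edgeR and 5 had an unadjusted p under 0.05, with 11 of 28 fold changes above 0 and a median of −0.11. Without the 2 libraries 0 were called, and without the 4 there was 1, Tdrd1, lower (3.57%, against 4.10%). The smallest p among them was that of Brdt, a bromodomain protein of the testis (−0.11, SE 0.04, adjusted p = 0.161 by edgeR).

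Immediate early genes, which neurons switch on with activity, gave 0 calls of 57 by edgeR, with 7 at an unadjusted p under 0.05. Their median log2 fold change was 0.05, and 43 of the 57 were above 0. The list summed to 3664 CPM in mutant female 2 at 3 h, against 2489 to 2963 CPM in the other mutants of that time. In WT male 1 at 1 h it summed to 2684 CPM, against 2827 to 3773 CPM in the other WT libraries of that time. Both are libraries of discordant sex, and the list median and sign count are not given without them. The smallest p was that of Fbxo33, an F-box protein (−0.08, SE 0.02, adjusted p = 0.115 by edgeR, 18 of 18 mutant libraries below the WT median of their time point). Without the 2 libraries Fbxo33 was called (1.75%, against 2.77% of all genes), and without the 4 there were 4 calls (7.02%, against 4.10%), Bhlhe40, Dusp14 and Inhba higher and Fbxo33 lower.

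With all 36 libraries synaptic and channel genes gave 1 or no call per list. Of 46 glutamate synapse genes, 1 was called (2.17%, against 1.30% of all genes), Cacng4, an auxiliary subunit of AMPA receptors (0.19, SE 0.05, adjusted p = 0.0468 by edgeR, 14 of 18 libraries above the WT median), and it was no longer called without the 2 libraries (adjusted p = 0.0653 by edgeR) or without the 4 (0.0794). Of 25 calcium channel genes Cacng4 was also the 1 call (4%, against 1.30%). Of 52 synaptic organizers C1ql2 was the 1 call (1.92%, against 1.30%). Of 20 GABA genes and 88 potassium channel genes 0 were called by edgeR, with 3 and 18 at an unadjusted p under 0.05, against 2764 of all 18186 genes tested. Gad2, which makes GABA (0.16, SE 0.05), and Kcng4, a modifier subunit of potassium channels (−0.23, SE 0.07), had edgeR adjusted p of 0.0852 and 0.0715. Without the 2 libraries Cacng5 was called in the glutamate and calcium channel lists, C1ql2 and Adgrl2 among synaptic organizers, Gad2 among GABA genes and Kcng4 among potassium channels. Without the 4 the calls were the same in the first 3 of these lists, 0 among GABA genes (Gad2 adjusted p = 0.051 by edgeR) and 5 among potassium channels, 2 higher and 3 lower, of which Kcne2 is also a choroid plexus marker. The shares of these 5 lists ran from 1.14% to 5% without the 2 libraries, against 2.77% of all genes, and from 0% to 5.68% without the 4, against 4.10%.

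Of 70 axon guidance genes, 3 were called (4.29%, against 1.30% of all genes), without the 2 libraries 2 (2.86%, against 2.77%), and without the 4 libraries 4 (5.71%, against 4.10%). Robo3, a Slit family receptor of commissural axons, ran from 25.6 to 52.8 CPM among WT libraries, median 36.2, and from 33.6 to 70.6 CPM among mutant ones, median 50.4 (0.46, SE 0.10, adjusted p = 0.0136 by edgeR). Efnb3, an ephrin ligand (0.13, SE 0.03, adjusted p = 0.0458 by edgeR, but 0.0625 without the 2 libraries), was higher and Unc5a, a netrin receptor that overlaps Hk3 (−0.12, SE 0.03, adjusted p = 0.0421 by edgeR), lower. Numbered zinc finger genes, most of which encode DNA-binding repressors, gave 6 calls of 346 (1.73%), near the 1.30% of all genes, and all 6 were higher, as were 163 of the 237 calls overall: Zfp92 (0.32), Zfp456 (0.60), Zfp677 (0.30) and Zfp811 (0.21) among them. There were 9 (2.601%, against 2.77%), all higher, without the 2 libraries, and 11 (3.18%, against 4.10% of all genes), all higher, without the 4. Their list median was 0.02, with 213 of 346 above 0.

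Respiratory chain genes of the nucleus gave 2 calls of 94 (2.13%, against 1.30% of all genes), both lower: Sdhc, an anchor of complex II on chromosome 1 (−0.12, SE 0.03, adjusted p = 0.0255 by edgeR), and Atp5o, a stalk subunit of ATP synthase (−0.11, SE 0.03, adjusted p = 0.0294 by edgeR). Of the 94, 22 had a fold change above 0, and the median was −0.03. There were 4 calls without the 2 libraries (4.26%, against 2.77%) and 5 without the 4 (5.32%, against 4.10%), all lower. Of 15 transcripts of the mitochondrial genome 0 were called by edgeR, 2 had an unadjusted p under 0.05, and 1 was above 0. The smallest p among them was that of mt-Rnr1, a ribosomal RNA (−0.13, SE 0.05, adjusted p = 0.184 by edgeR). Of 81 ribosomal protein genes 1 was called (1.235%, against 1.30%), Rps4l. Interferon (25), major histocompatibility (29), sterol and fatty acid (30), heat shock (17) and clock (19) genes gave 0 calls by edgeR, with 3, 5, 2, 3 and 5 at an unadjusted p under 0.05. The smallest p in these lists were those of Bst2 (−0.44), H2-Aa (−0.65), Tm7sf2 (0.16), Hsp90aa1 (−0.10) and Npas2 (−0.20), with edgeR adjusted p from 0.0563 to 0.226. Of these Hsp90aa1 was called without the 2 libraries (adjusted p = 0.0302 by edgeR) and without the 4 (0.0414), and H2-Aa and Tm7sf2 without the 4, where Tapbp and Bhlhe40 were called as well. The heat shock share was 5.88% in both fits, against 2.77% and 4.10% of all genes. Without the 4 it was 6.90% for major histocompatibility, 3.33% for sterol and fatty acid and 5.26% for clock genes, against 4.10%.

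The largest changes among called genes with a mean of at least 1 CPM were, upwards, Mpzl2, an adhesion molecule of epithelia (1.85, SE 0.33, adjusted p = 0.0025 by edgeR), Xlr3b, Wdr95 and Myoc, a secreted protein of the eye and of glia (1.23, SE 0.31, adjusted p = 0.0375 by edgeR, overlapping Myocos). Downwards they were Gh, growth hormone (−4.05, SE 0.84, adjusted p = 0.00898 by edgeR), Prl, prolactin (−3.56, SE 0.89, adjusted p = 0.0366 by edgeR), Tmem37 and St6galnac2, a sialyltransferase (−0.74, SE 0.18, adjusted p = 0.0352 by edgeR). Gh and Prl are hormones of the anterior pituitary. Other hormone genes of that gland, looked at after these values were seen, were not called with all 36 libraries: Cga at −2.84, Lhb at −0.97, Tshb at −0.25 and Pomc at 0.16, with edgeR adjusted p of 0.133, 0.0725, 0.516 and 0.938. Lhb was called without the 2 libraries (−1.05, adjusted p = 0.0448 by edgeR) and without the 4 (−1.14, adjusted p = 0.026 by edgeR). Cga, Tshb and Pomc were called in neither. Gh ran from 0.0144 to 129 CPM among WT libraries, median 3.22, and from 0.0728 to 8.22 CPM among mutant ones, median 0.466. Prl ran from 0 to 245 CPM among WT libraries, median 4.15, and from 0 to 83.1 CPM among mutant ones, median 0.346. The ranges of both hormones were wide within each genotype and overlapped.

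Marker lists of the cell types that a hippocampal dissection can hold were summed in each library. Fewer cells of a type and less RNA per cell cannot be told apart in such bulk samples. The 4 neuron markers summed to 4014 to 4885 CPM among WT libraries and 3767 to 4738 CPM among mutant ones, and dentate, CA1, CA2 and CA3 markers were present in all libraries. Choroid plexus markers varied most. Their 10 genes summed to 178.8 to 12063 CPM among WT libraries, median 2591, and to 235.1 to 5306 CPM among mutant ones, median 464.3. All 10 had a fold change below 0 and an unadjusted p under 0.05, 0 were called by edgeR in the 36 libraries, 3 without the 2 (30%, against 2.77% of all genes) and 6 without the 4 (60%, against 4.10%). Ttr, the thyroid hormone carrier of the choroid plexus, ran from 10.95 to 7240 CPM among WT libraries and from 19.5 to 3298 CPM among mutant ones (−2.08, SE 0.82, adjusted p = 0.197 by edgeR). Meninges markers summed to 78.5 to 511.7 CPM among WT libraries, median 172.3, and to 53.2 to 240.5 CPM among mutant ones, median 100.3. The part of these tissues in the lower values of Gh, Prl, Tgfb2 and the other genes called was not tested.

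Of 8 dentate granule cell markers 2 were called (25%, against 1.30% of all genes), C1ql2 and Tdo2, a tryptophan dioxygenase (0.41, SE 0.10, adjusted p = 0.0243 by edgeR), both higher. The list summed to 349.4 to 695.6 CPM among WT libraries, median 501.6, and 435.7 to 678.1 CPM among mutant ones, median 546.6. Of 6 CA2 markers 0 were called by edgeR and 4 had an unadjusted p under 0.05, and without the 2 libraries Cacng5 and Pcp4 were called higher and without the 4 libraries Cacng5, Pcp4, Ccdc3 and Rgs14 (66.7%, against 4.10% of all genes). The CA2 sum had medians of 268.7 CPM in WT (range 239.9 to 313.7) and 311.6 CPM in mutants (range 278.4 to 353.3). Among 8 astrocyte markers 1 was called (12.5%, against 1.30% of all genes). That was Gja1, the gap junction protein connexin 43, higher in mutants (0.13, SE 0.03, adjusted p = 0.0352 by edgeR, 18 of 18 mutant libraries above the WT median). It was called without the 4 libraries but not without the 2. In each of the other marker lists 0 genes were called by edgeR with all 36 libraries, with 0 to 10 genes per list at an unadjusted p under 0.05. In the reduced fits Igf2 of the meninges list was called lower (20% of its list) and Rgs5 of the mural cell list higher (25%), both without the 2 and without the 4. Gad2 of the interneuron list was called higher without the 2 (12.5%). The shares of all genes were 2.77% without the 2 and 4.10% without the 4.

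**Figure D5:**
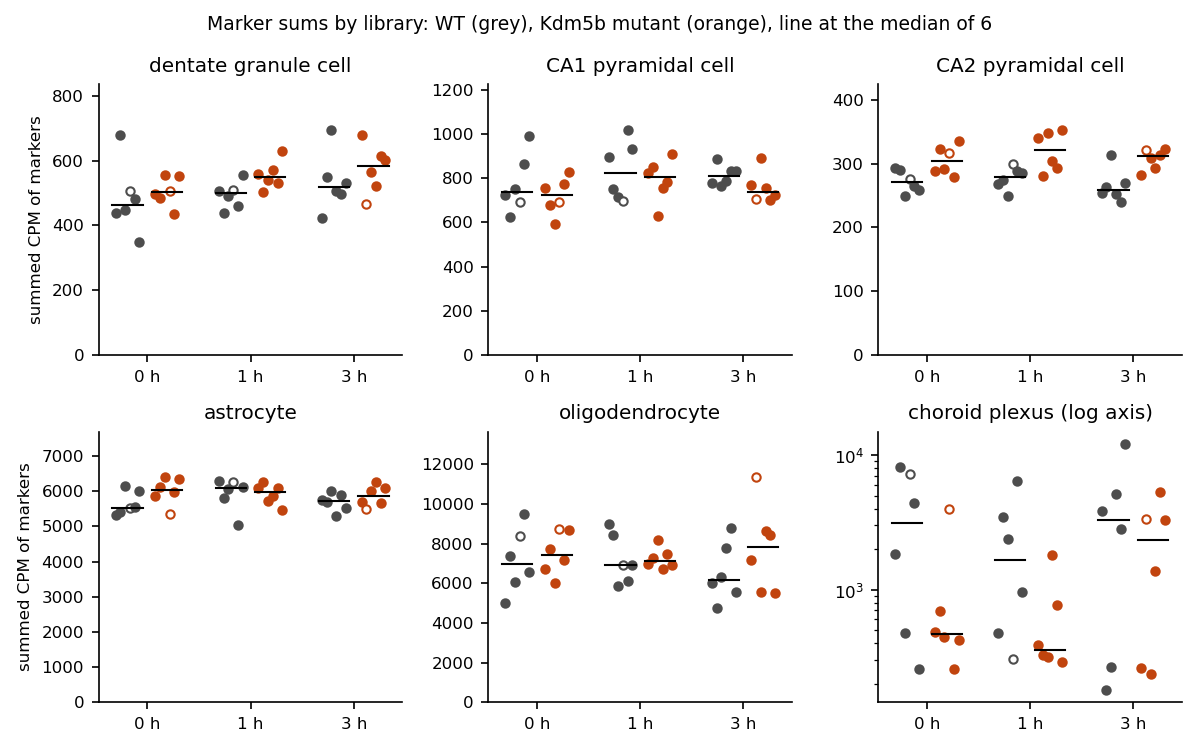
Summed CPM of 6 marker lists (vertical axes, from 0 except the log axis of choroid plexus) in each library by time point (horizontal axes) for WT (grey) and mutants (orange), with a line at the median of 6 libraries and open points for the 4 libraries nearer to the other genotype. Choroid plexus sums run from 178.8 to 12063 CPM, while the CA2 sums stay between 239.9 and 353.3 CPM.

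Whether the genotype difference changed with time point was tested as an interaction. Of 18186 genes 0 were called (edgeR, smallest adjusted p = 1.00), 525 had an unadjusted p under 0.05, and a likelihood ratio test in DESeq2 gave 0 calls and 583 at an unadjusted p under 0.05. Of the 237 genes called for the pooled effect, 1 had an unadjusted interaction p under 0.05, and all 237 had the same sign at the 3 time points, which their choice by the pooled effect favours. That gene was Tprkb, which differed by 0.27, 0.10 and 0.28 on the log2 scale at 0, 1 and 3 h (edgeR interaction, unadjusted p = 0.0251). Utp14b differed by 0.53, 0.64 and 0.68 at these times, Eya1 by 0.39, 0.39 and 0.43, and Fam20b by −0.12, −0.12 and −0.13. The smallest interaction p belonged to Mbl2 (0.000139), Rtp4 (0.000177) and Ddx60 (0.000326), whose highest values in any library were 0.40, 2.44 and 1.72 CPM.

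The same test for labelled sex called 0 genes (edgeR, smallest adjusted p = 0.693), with 665 at an unadjusted p under 0.05, and DESeq2 called 0 with 709 at an unadjusted p under 0.05. Of the 237 genes 21 had an unadjusted p under 0.05. The smallest p belonged to Tulp1 (3.8e-05), Lrtm1 (0.000242) and Fbn2 (0.000342). Without the 4 libraries 0 genes were called in either interaction. Xist and the Y-linked genes, whose group means carry the 2 libraries of discordant sex, had log2 fold changes of −1.68 for Xist and 1.39 to 1.54 for Uty, Eif2s3y, Ddx3y and Kdm5d, with edgeR adjusted p from 0.369 to 0.462, and of −0.08 to 0.07 without the 2 libraries. Nnt and Gabra2, which are known to differ between inbred strains and lie away from chromosome 1, had log2 fold changes of −0.10 and −0.02 with edgeR adjusted p of 0.528 and 0.937.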

How the data were processed

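Polyadenylated RNA of the dorsal hippocampus was sequenced in 36 libraries, 1 per mouse. Per the submitters' processing notes the authors aligned reads with STAR 2.7.8a to GRCm38.p6 and counted them per gene with featureCounts 2.0.1, and they deposited raw counts, not normalized, for 27179 genes in each library. The strand setting of the counting is not given in the sources used here. Names came from RefSeq for 25275 genes and from GENCODE for 18, and 1886 genes without a name held 1.27% of counts. No pair among 630 had identical counts.

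Groups followed the labels. Genes passed filterByExpr (minimum count 10), and the 18186 left were scaled by TMM and fitted with robust quasi-likelihood F-tests in edgeR 4.0.16 (R 4.3.3), with time point, labelled sex and genotype as additive terms. P-values were adjusted by Benjamini-Hochberg over all genes, with a threshold of 0.05, and carry 31 residual degrees of freedom. The scripts were tested on simulated data. Alternatives were DESeq2 1.42.0, voom with quality weights in limma 3.58.1, RLE scaling, other filters, other handling of sex, blocks, and leaving out libraries or time points. Leaving out the 4 libraries was added after seeing the data.

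The comparison and the gene and marker lists were chosen with earlier results of these data known. Genes named were Kdm5b, the 12 higher and the 12 lower genes with the smallest p, the 6 of each direction with the smallest p off chromosome 1, the 4 largest changes in each direction at a mean of 1 CPM or more, up to 4 called members of each list or else the member with the smallest p, the 3 smallest p of each interaction, and the strain and sex genes. Some genes that the rule names are not reported here. Other genes, including Acsl3, Kdm5a, Kdm5c, Sctr, Tfcp2l1, Inhbb, Slc26a9, Crb1, Tdo2 and Gja1, were named after their values were seen. Promoters were RefSeq sequences.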

Additional observations from a re-analysis of the deposited data

Results flagged for a closer look

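Among 138 sets of 6 libraries of 1 genotype and time point compared for library totals and marker sums, 13 held a library far from the other 5 by Dixon's criterion, which chance gives in about 1 in 20 sets. Library totals stood apart for WT male 2 at 0 h (40274435 counts, others 62999366 to 69151754) and mutant female 2 at 0 h (78675309, others 60596402 to 66179818). The library labelled mutant female 2 at 3 h, whose sex transcripts went against its label, was highest in the summed CPM of mossy cell (128.1, others 63.37 to 83.84), interneuron (1016, others 805.7 to 874) and thalamus markers (160, others 60.91 to 86.06). The library labelled WT male 1 at 1 h, the other of discordant sex, was lowest in endothelium markers (128.7 CPM, others 144.2 to 149.2). Mutant male 1 at 0 h was highest in choroid plexus (3986 CPM, others 257.5 to 687) and meninges markers (174.2 CPM, others 63.9 to 101.6). Choroid plexus markers also stood apart in mutant male 1 at 1 h (1800 CPM, others 287.6 to 770.1). Mutant female 3 at 3 h was highest in CA1 markers (890.8 CPM, others 703.1 to 767.1), WT female 1 at 3 h in mossy cell markers (102.8 CPM, others 69.42 to 76.93) and mutant female 1 at 3 h in neocortex markers (167.5 CPM, others 129.5 to 141.8). WT male 3 at 3 h was lowest in immature neuron markers (43.27 CPM, others 52.28 to 54.01). The part of these differences in the genotype effect was not tested.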

How the results depend on the processing

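The number of called genes moved with the test and with the libraries used, and the cause was not tested. DESeq2 called 559 genes (292 higher, 267 lower), DESeq2 with time point only 507 (277 and 230), and limma voom with quality weights 404 (263 and 141). Without the 2 libraries of discordant sex 507 were called (282 and 225), and without the 4 libraries nearer to the other genotype 747 (426 and 321). With sex taken from the transcripts the lower genes numbered 128. With 1 time point left out, and so fewer libraries, 50 genes were called without 0 h (43 and 7), 22 without 1 h (21 and 1) and 13 without 3 h (11 and 2). Leaving out each library in turn gave 169 to 368 called genes, 120 to 224 higher and 46 to 151 lower. The count moved by over 1.5 times without WT male 1 at 1 h (368) or mutant male 1 at 0 h (367), and the lower count also without WT male 2 at 1 h (46), mutant male 3 at 0 h (49) or mutant female 2 at 3 h (113).

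Same-numbered libraries came from different mice and correlated at −0.188 to 0.211, over 0.1 in 6 of 18 pairs, and 8 WT libraries correlated best with their own number. With the replicate number as a block 245 genes were called, 213 of them shared with the 237. For genes under 1 CPM the median 95% half-width was 0.48 on the log2 scale, not adjusted for the number of genes tested. Calls needed an adjusted p under 0.05, so differences below 0.48, and some above it, were mostly not detectable there. The 34 genes called at that level had a median absolute log2 fold change of 0.96. Both interactions had 0 calls under each alternative run. Of the 42 named genes called, 0 changed sign in any alternative.

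Sign changes were seen for genes that were not called. With sex from the transcripts, without the 2 libraries and without the 4, the log2 fold changes were −0.0417, −0.0555 and −0.0530 for Ddx3y, −0.0403, −0.0534 and −0.0345 for Eif2s3y, and −0.0597, −0.0828 and −0.0476 for Uty. Xist was at 0.0113 without the 2 and 0.0135 without the 4. Rtp4 was at 0.152 without 1 h. Ddx60 was at −0.00187 without the 2 and −0.375 without 3 h, and ranged from −0.000374 to 0.184 with each library left out. Gabra2 was at 0.0280 without 0 h and 0.00938 without the 4, and ranged from −0.0527 to 0.00412 with each library left out.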
